A study of Homo sapiens with 12 samples.

Results

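HL60, a human acute myeloid leukemia line with promyelocyte-like features, was cultured with all-trans retinoic acid (ATRA) alone and its RNA was compared with that of non-treated HL60 cells. The 6 libraries of this comparison are 3 biological replicates treated with 1 µM ATRA for 48 h and 3 biological replicates left untreated, of 12 libraries in the whole series. The labels name no solvent for the untreated cells, so any effect of the solvent cannot be told apart from that of ATRA. The other 6 libraries, HL60 treated with 1 µM palbociclib (an inhibitor of CDK4 and CDK6) for 48 h with or without ATRA, entered the fit to estimate the spread, and palbociclib alone served as a reference for cell cycle genes. All groups are the same line, which carries the normal PML and RARA genes without the PML-RARA fusion of acute promyelocytic leukemia. The line has an amplified MYC locus, and its p53 gene is mutated, as the study states. A single line gives no measure of how other leukemias respond.

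All genes with enough reads were taken as members, which gave 13318 genes tested of 59251 in the count table. The libraries held between 15238994 and 17010052 counts each, with little difference between the groups, and levels are given as CPM, counts scaled to a common library total after TMM, a correction for library composition. A gene was called when its adjusted p was under 0.05 (quasi-likelihood F test of edgeR, adjusted by Benjamini-Hochberg over all 13318 genes). Because these are bulk libraries, fewer cells of a type and less RNA per cell cannot be told apart, and every level is relative to the total RNA of the sample.

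Retinoic acid is the active form of vitamin A. It binds the retinoic acid receptors RARA, RARB and RARG, which sit on DNA as pairs with RXR proteins. Without ligand these pairs hold corepressors such as NCOR1, and with ligand they exchange them for coactivators of the NCOA family. In the bone marrow this switch favours maturation of promyelocytes into neutrophils, cells that carry adhesion and chemoattractant receptors, an oxidase that makes superoxide, and granules filled in a fixed order during maturation. Proliferating progenitors, in contrast, rely on MYC, which is known to activate genes for ribosome assembly and nucleotide synthesis.

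ATRA moved most of the expressed genes, but most of them by little. Of the genes tested, 9006 were called (67.6%), 4272 of them higher (32.1%) and 4734 lower (35.5%). The ATRA and non-treated libraries did not overlap in level in 9363 genes (70.3%). Changes of at least 2-fold were seen for 1712 genes that rose (12.9%) and 1182 that fell (8.88%), and changes of at least 4-fold for 767 and 250 genes. In contrast, for 2278 genes (17.1%) the whole 95% confidence interval of the log2 fold change lay within 0.32 of 0 (a ratio of 5 to 4 in either direction), and these are called steady below. Of the steady genes, 823 passed the test all the same with a small change, and 1455 did not, so that counts of called and of steady genes overlap. A further 2857 genes were neither called nor shown to be steady.

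The genes that rose at least 2-fold went from 2.69% to 11.6% of all CPM, while those that fell at least 2-fold went from 10.4% to 3.58%. The steady genes made up 35.7% of CPM in the non-treated cells. Steadiness could only be shown where depth allowed it. In the lowest quartile of genes by level 41.6% were called and 0% were steady, and in the highest quartile 85.7% were called and 34.0% were steady. The standard error of a log2 fold change had a median of 0.0864 among genes between 5 and 50 CPM and 0.0459 between 50 and 500 CPM. The ranges from the 5 to the 95 percentile were 0.0593 to 0.163 and 0.0368 to 0.0588. These values are a rough guide for fold changes against non-treated cells given below without an error. They do not cover genes under 5 CPM or the comparison with palbociclib.

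**Figure D1:**
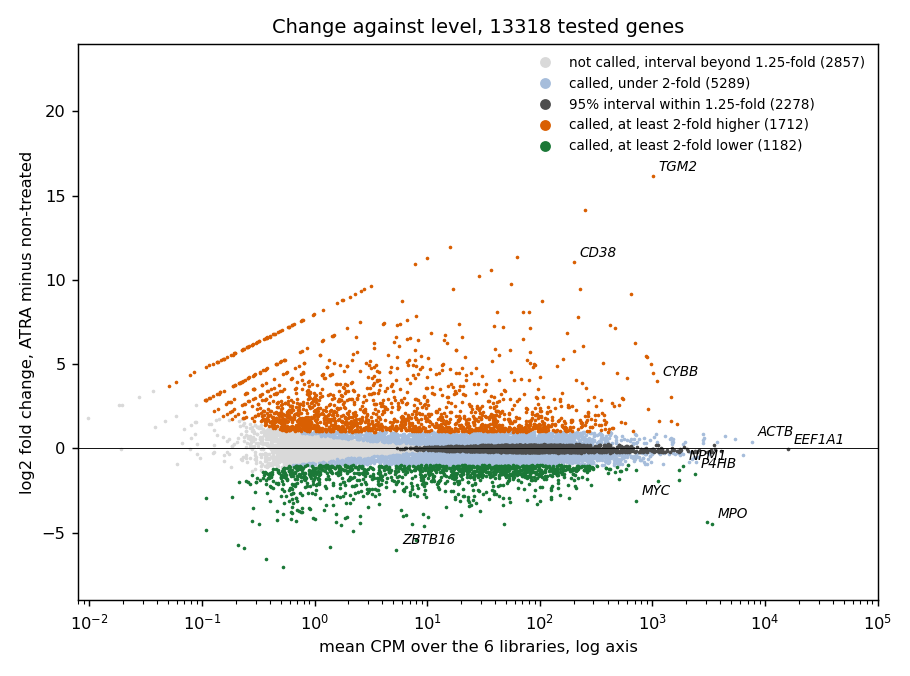
Log2 fold change of ATRA against non-treated (vertical axis) and mean CPM over the 6 libraries (horizontal log axis) for each of the 13318 tested genes, coloured by call, with the number of genes in each class in the legend. Steady genes (2278, dark grey) lie at high levels around 0, and the diagonal streaks at the upper left are genes with 0 to 3 counts in the non-treated libraries, whose fitted fold changes depend on the prior count.

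Genes of the retinoid pathway were higher after ATRA more often than lower. A list of 32 retinoid receptors, cofactors, turnover enzymes and known targets such as TGM2 was drawn up with earlier results of these data known. Of these, 19 were expressed enough to test, and 15 rose and 2 fell, against 32.1% and 35.5% of all genes. By at least 2-fold, 11 rose and 1 fell (12.9% and 8.88% of all genes). Because targets of retinoids were included, the share of rises was in part set by the choice of members. The largest rise of all genes was that of TGM2, transglutaminase 2, an enzyme that crosslinks proteins (chromosome 20, 38127385 to 38168475, hg38). It was at 0.0601, 0 and 0 CPM in the non-treated libraries, a single read in all, and at 2179, 1944 and 1949 CPM in the ATRA libraries. Set against a floor of 3 counts per library, this is at least 11297-fold higher (adjusted p = 1.2e-56). DHRS3, which reduces retinal back to retinol, went from 0.12, 0 and 0 CPM to 130.7, 126.6 and 120.3 CPM, at least 703-fold higher (adjusted p = 8.48e-46). Both genes went from next to no reads in every non-treated library to being well expressed in every ATRA library.

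Among the receptors themselves, RARA was at 43.8, 43.3 and 46.1 CPM without and at 108.7, 100.5 and 99.8 CPM with ATRA, a rise of 1.21 ± 0.05 on the log2 scale (SE, adjusted p = 1.75e-27). Its partner RXRA moved the other way, from 176.4, 168.5 and 160.9 CPM to 78.9, 74.3 and 75.3 CPM (log2 fold change −1.15 ± 0.04, adjusted p = 5.06e-29). The libraries of the 2 groups did not overlap for either gene. RARG rose by 0.98 ± 0.19 from a mean of 2.08 CPM, and RARB had too few reads to test.

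The coactivator NCOA3 rose from between 30.3 and 32.2 CPM to between 232.6 and 237.0 CPM (log2 fold change 2.92 ± 0.05), and NRIP1, a corepressor that binds ligand-bound receptors, rose by 1.85 ± 0.05. DHRS9, an enzyme that oxidizes retinol, rose by 5.57 ± 0.17 and the transcriptional repressor HIC1 by 8.74 ± 0.31. The retinoic acid hydroxylases CYP26A1 and CYP26B1 and the binding protein CRABP2, often used as readouts of retinoid action, had too few reads to test.

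The genes of granulocyte surface receptors rose together. Of 47 genes, 42 were tested, 37 rose (32 of them at least 2-fold, against 12.9% of all genes) and 4 fell, and the median log2 fold change was 1.56. CD38, an ectoenzyme that degrades NAD and is widely used as a marker of the response to ATRA (chromosome 4, 15778328 to 15853232), was at 0.481, 0 and 0.0563 CPM in the non-treated libraries. In the ATRA libraries it was at 407.9, 398.8 and 391.8 CPM (log2 fold change 11.06 ± 0.54, adjusted p = 9.07e-52). The non-treated level rested on a handful of reads, so that the size of the fold is uncertain, while the ATRA libraries agreed closely.

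ITGAM, the gene of CD11b (chromosome 16, 31259975 to 31332877), was at 8.17, 9.59 and 9.97 CPM without and at 276.0, 274.0 and 270.6 CPM with ATRA (log2 fold change 4.88 ± 0.07, adjusted p = 2.56e-50). Every ATRA library lay far above every non-treated one. The β chain that pairs with CD11b, ITGB2, rose by 2.91 ± 0.04 and the related α chain ITGAX (CD11c) by 4.94 ± 0.22.

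Receptors for chemoattractants and complement rose to different extents. CCR1, a receptor for CC chemokines, rose by 3.54 ± 0.07 and the leukotriene B4 receptor LTB4R by 3.22 ± 0.08. FPR1, the receptor for formylated bacterial peptides, rose by 3.43 ± 0.24 but only to between 8.16 and 9.67 CPM, and the complement receptor CR1 rose by 2.92 ± 0.05. CSF3R, the receptor for G-CSF, was already expressed at 37.3 to 41.3 CPM and rose to between 94.8 and 98.6 CPM (log2 fold change 1.32 ± 0.05). The IgG receptor gene FCGR2A was steady at 18.2 to 22.8 CPM without and 19.5 to 22.3 CPM with ATRA. The 4 members that fell were the nucleotide receptor P2RY2 (by 2.35 on the log2 scale), the adhesion molecule CEACAM6 (by 1.49), the selectin ligand SELPLG (by 0.84) and FCGR1A (by 0.66), whose reads may be shared with its near-identical copies.

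**Figure D2:**
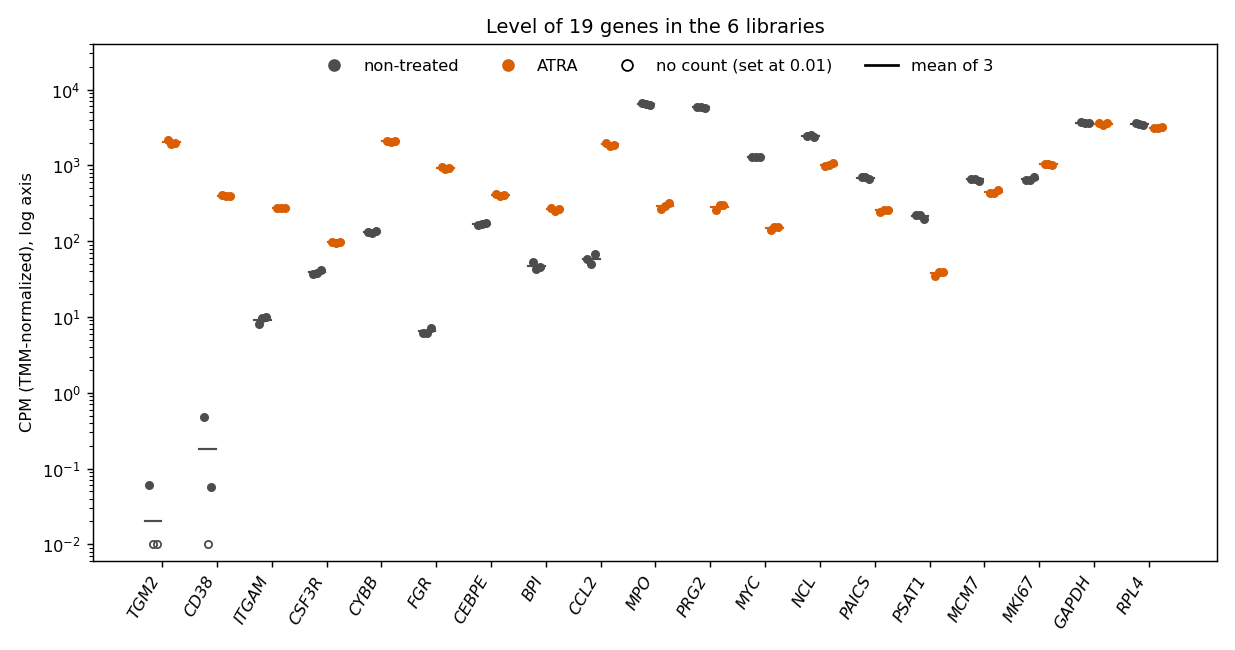
Level of 19 genes in TMM-normalized CPM (vertical log axis) in the 3 non-treated (grey) and 3 ATRA libraries (orange), with points for libraries, open points at 0.01 for libraries with no count and short lines for the mean of 3. TGM2, CD38, ITGAM, CSF3R, CYBB, FGR, CEBPE, BPI and CCL2 lie higher after ATRA, and MPO, PRG2, MYC and biosynthetic genes lie lower. GAPDH lies at nearly the same level in all 6 libraries. RPL4, also steady by the interval, lies slightly lower in every ATRA library (log2 fold change −0.16).

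The phagocyte NADPH oxidase makes superoxide from oxygen through a membrane core (CYBB and CYBA) that is switched on by cytosolic subunits. All 10 tested genes of the list rose (32.1% of all genes did), 3 of them at least 2-fold (12.9% of all genes), with a median of 0.88. CYBB, the catalytic subunit gp91phox (chromosome X, 37780059 to 37813461), was at 130.5, 129.1 and 134.8 CPM in the non-treated and at 2099, 2037 and 2101 CPM in the ATRA libraries (log2 fold change 3.98 ± 0.04, adjusted p = 5.11e-50). Every ATRA library lay far above every non-treated one, and the libraries within each group differed little. The rises of NCF4 (0.95), the GTPase RAC2 (0.97) and CYBA (0.81) were under 2-fold. NCF1, the p47phox subunit, rose by 5.40 ± 0.05, but its reads cannot be told apart from those of the pseudogenes NCF1B (5.79) and NCF1C (6.26), so its level is uncertain.

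Of 25 signalling genes downstream of these receptors, 21 were higher, 13 of them at least 2-fold, and 1 was lower, against 32.1%, 12.9% and 35.5% of all genes. The Src family kinase FGR was at 6.19, 6.21 and 7.21 CPM without and at 945.4, 906.6 and 930.7 CPM with ATRA, a log2 fold change of 7.14 ± 0.08 (adjusted p = 1.45e-55). Its relative LYN rose by 2.49 ± 0.05. The kinase SYK, which acts beside them, was steady at 258.3 to 273.1 CPM without and 240.0 to 266.8 CPM with ATRA. The groups overlapped for SYK and lay far apart for FGR.

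Granule proteins are normally made at different stages. Azurophil granules are filled at the promyelocyte stage. A list for these granules, which also holds the protease inhibitor SERPINB1, had 11 tested genes. Of these, 8 fell (6 at least 2-fold) and 3 rose, where 35.5% of all genes fell (8.88% at least 2-fold) and 32.1% rose. The median was −1.59 (−0.60 with at least 10 counts in every library). MPO, myeloperoxidase (chromosome 17, 58269855 to 58280935), was among the most highly counted genes of non-treated HL60 with 6666, 6550 and 6336 CPM, and was at 268.1, 288.0 and 322.3 CPM after ATRA (log2 fold change −4.48 ± 0.05, adjusted p = 4.63e-47). The libraries of each group stood close together and far from the other group. The serine protease CTSG fell by 4.47 ± 0.30, its relative PRSS57 had a log2 fold change of −3.02 ± 0.13, and lysozyme (LYZ) fell by 1.59 ± 0.10. Against this direction, BPI, a protein that binds bacterial endotoxin, rose from 52.8, 42.8 and 45.4 CPM to 272.1, 253.5 and 268.5 CPM (log2 fold change 2.49 ± 0.05), and the protease inhibitor SERPINB1 rose by 2.55 ± 0.05. The dipeptidyl peptidase CTSC was steady. ELANE, PRTN3 and AZU1, 3 further genes of these granules, held no count in any of the 6 libraries, from which nothing can be said about their expression.

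Of the genes of secondary and tertiary granules, which are made later, 15 of 24 were tested, 12 rose (10 at least 2-fold) and 2 fell, against 32.1% (12.9%) and 35.5% of all genes. Their median was 2.03 (1.19 with at least 10 counts in every library and 1.21 by the log2 ratio of mean CPM plus 1). Their levels after ATRA were in part low. MMP8, neutrophil collagenase, had no count in the non-treated libraries and was at 1.66, 1.69 and 2.54 CPM with ATRA, at least 11-fold higher. OLFM4, a glycoprotein of specific granules, likewise went from no count to between 0.718 and 1.05 CPM (at least 4.91-fold higher), and haptoglobin (HP) rose by 3.92 ± 0.50 to between 3.20 and 4.61 CPM. The vitamin B12 binder TCN1 fell by 1.33 ± 0.29. LTF, LCN2 and CAMP, the most familiar proteins of specific granules, had too few reads to test.

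Of the eosinophil and basophil marker genes tested, 8 of 9 fell, 7 of them at least 2-fold (35.5% and 8.88% of all genes). PRG2, the major basic protein, was at 5865, 5983 and 5724 CPM in the non-treated and at 260.9, 297.4 and 299.6 CPM in the ATRA libraries (log2 fold change −4.36 ± 0.05, adjusted p = 2.01e-48). EPX, eosinophil peroxidase, fell by 3.94 ± 0.25 and the ribonuclease RNASE2 by 2.96 ± 0.07. CLC, the Charcot-Leyden crystal protein, fell less, by 0.54 ± 0.04, and the eotaxin receptor CCR3 rose by 6.47 ± 0.61 from at most 0.24 CPM to between 12.4 and 13.7 CPM. The eosinophil and basophil marker genes as a whole (10 genes) summed to between 6440 and 6690 CPM without and between 629 and 696 CPM with ATRA, and PRG2 made up most of the first sum.

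Chemokines and cytokines were higher in 16 of 21 tested genes (14 at least 2-fold) and lower in 4 (3 at least 2-fold), against 32.1% (12.9%) and 35.5% (8.88%) of all genes. Their median of 3.85 rested on genes near 0 without ATRA, and was 1.15 with at least 10 counts in every library and 1.26 by the log2 ratio of mean CPM plus 1. CCL2, which attracts monocytes, was at 58.6, 50.7 and 67.5 CPM without and at 2002, 1828 and 1863 CPM with ATRA (log2 fold change 5.01 ± 0.06, adjusted p = 2.33e-47). CXCL8, the main chemoattractant of neutrophils, was at 66.5, 66.5 and 65.7 CPM and rose to 580.7, 530.6 and 505.9 CPM (3.02 ± 0.05, adjusted p = 9.96e-43). Both chemokines were already measurable before treatment and no library overlapped between the groups. IL1B rose by 3.85 ± 0.13, CCL20 by 4.39 ± 0.22 and CSF1, the growth factor of macrophages, by 5.13 ± 0.38. VEGFA, the vascular growth factor, fell by 1.09 ± 0.06, and the death ligand TNFSF10 by 1.22. PTGES, which makes prostaglandin E, had 1 read in all non-treated libraries and rose to 543.1, 491.0 and 480.5 CPM, at least 2819-fold higher.

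Among transcription factors of myeloid cells and progenitors, 26 of 39 tested genes rose (15 at least 2-fold) and 11 fell (4 at least 2-fold), where 32.1% of all genes rose (12.9% at least 2-fold) and 35.5% fell (8.88% at least 2-fold). CEBPE, the C/EBP factor needed for late granulocyte maturation (chromosome 14, 23117306 to 23119255), was at 165.3, 168.6 and 174.8 CPM without and at 423.8, 398.6 and 406.7 CPM with ATRA (log2 fold change 1.27 ± 0.04, adjusted p = 5.84e-33). CEBPA, which acts at an earlier stage, went the other way, from 386.3, 377.4 and 367.6 CPM to 147.7, 139.7 and 147.3 CPM (−1.38 ± 0.04, adjusted p = 9.34e-35). All ATRA libraries lay above the non-treated ones for the first gene and below them for the second. CEBPB rose by 2.82 ± 0.05, EGR1, an immediate early factor, by 4.56 ± 0.10, and BCL6 by 4.78 ± 0.21.

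The progenitor factor GATA2 fell from between 219.3 and 224.2 CPM to between 29.3 and 31.6 CPM (−2.86 ± 0.05), and MYB, which sustains progenitor growth, fell by 2.21 ± 0.04. ZBTB16 (PLZF) had the largest fall among genes of at least 5 CPM, from 9.44, 11.1 and 11 CPM to 0.308, 0 and 0.166 CPM (−6.01 ± 0.59, adjusted p = 1.96e-22). GFI1, a repressor needed for neutrophils, was steady at 290.1 to 304.8 CPM without and 259.7 to 275.3 CPM with ATRA. In the same direction as GATA2, surface proteins of progenitors fell in 6 of 10 tested genes (35.5% of all genes) and rose in 2 (32.1%). The growth factor receptor FLT3 fell by 2.39 ± 0.17, and TFRC, the transferrin receptor of dividing cells, fell from 1862, 1811 and 1687 CPM to 419.8, 471.4 and 484.9 CPM (−1.96 ± 0.04).

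Genes known to respond to interferon rose in part. Of 48, 36 were tested, 28 rose (20 at least 2-fold) and 2 fell, with a median of 1.22, while 32.1% of all genes rose (12.9% at least 2-fold) and 35.5% fell. IRF1, a transcription factor of the interferon response, was at 9.8, 10.5 and 12.4 CPM without and at 71.4, 79.3 and 76.5 CPM with ATRA (log2 fold change 2.79 ± 0.08, adjusted p = 1.33e-34). The antiviral genes MX2 and OAS3 rose by 4.43 ± 0.25 and 4.06 ± 0.40 from levels of about 1 CPM or less, and the DNA sensor IFI16 by 2.42 ± 0.09. ISG15, usually among the strongest interferon-induced genes, was at 7.87, 10.4 and 7.88 CPM without and at 9.68, 9.33 and 8.78 CPM with ATRA (log2 fold change 0.09 ± 0.12, adjusted p = 0.532), and the groups overlapped. The classical members IFIT1, OAS1 and OAS2 had too few reads to test.

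Promoters of some of these genes are shown because their letters can be set beside the changes. For 9788 of the 13318 tested genes a RefSeq promoter on GRCh38.p14 was at hand, from 250 bases before to 50 after the gene's most upstream listed start. A motif like the interferon-stimulated response element (ISRE), a pair of GAAA half-sites with 2 bases between them on either strand, was in 15 of 27 promoters of the interferon list (55.6%), in 4.63% of promoters of genes that rose at least 2-fold and in 2.85% of those of all tested genes. Promoters on chromosomes 8 and 18 were left out of the choice of promoters printed here and further below. Of the other interferon-list promoters with this motif, the 3 whose genes had the highest CPM in either group are given. They run from 5′ to 3′ on the strand of the gene, with the motif in capitals.
EIF2AK2 (chr2:37156951-37157046, minus strand): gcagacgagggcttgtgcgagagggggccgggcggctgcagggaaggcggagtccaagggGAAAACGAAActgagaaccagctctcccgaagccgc
BST2 (chr19:17405685-17405814, minus strand): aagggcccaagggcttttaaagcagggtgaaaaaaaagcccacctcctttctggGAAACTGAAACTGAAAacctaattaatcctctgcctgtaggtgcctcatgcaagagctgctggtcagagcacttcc
DTX3L (chr3:122564272-122564367, plus strand): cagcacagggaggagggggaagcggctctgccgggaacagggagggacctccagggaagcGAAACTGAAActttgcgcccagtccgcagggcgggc

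These 3 genes behaved differently although each holds the motif. EIF2AK2, the kinase PKR, was steady (52.9 to 57.7 CPM without and 57.9 to 61.4 CPM with ATRA). BST2 (tetherin), whose promoter holds 2 overlapping copies, rose by 0.61 ± 0.06, and DTX3L, a ubiquitin ligase, rose from between 10.8 and 14.3 CPM to between 47.7 and 50.5 CPM (1.97 ± 0.09). Over the interferon list, the 15 genes with the motif had a median log2 fold change of 0.80 and the 12 without it one of 1.22. Over all tested genes the order was the opposite, with a median of 0.12 for the 279 with the motif and −0.03 for the 9509 without it, and 20.4% and 12.4% rose at least 2-fold.

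A letter string bound by PU.1, GAGGAAGT on either strand, was in 4.87% of the promoters of genes that rose at least 2-fold, in 2.82% of those of all tested genes and in 2.01% of those of genes that fell at least 2-fold. The median log2 fold change was 0.28 over the 276 tested genes with this string and −0.03 over the 9512 without it. Of the genes outside chromosomes 8 and 18 that rose at least 2-fold and hold it, ALOX5AP and NCF1 had the highest CPM. The string is in capitals on either strand.
ALOX5AP (chr13:30713235-30713358, plus strand): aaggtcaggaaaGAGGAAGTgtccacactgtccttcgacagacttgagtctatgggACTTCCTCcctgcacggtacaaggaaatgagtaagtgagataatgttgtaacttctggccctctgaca
NCF1 (chr7:74773904-74774031, plus strand): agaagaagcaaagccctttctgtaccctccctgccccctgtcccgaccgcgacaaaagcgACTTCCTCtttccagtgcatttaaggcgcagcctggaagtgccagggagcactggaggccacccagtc

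ALOX5AP, which presents arachidonic acid to the leukotriene pathway, was at 90.1, 84.5 and 84.8 CPM without and at 1973, 1911 and 1904 CPM with ATRA (log2 fold change 4.48 ± 0.05, adjusted p = 2.13e-50). The libraries of the 2 groups lay far apart. Direct repeats of the retinoid receptor half-site spaced by 5 bases (DR5) were rare in this window, in 4 of the 9788 promoters of tested genes (0.0409%) and in 1 of the 1232 of genes that rose at least 2-fold (0.0812%). The latter was that of BATF2, a basic leucine zipper factor, which went from 0, 0 and 0.169 CPM to 14.3, 17.4 and 15.7 CPM (at least 88.3-fold higher). The repeat is in capitals.
BATF2 (chr11:64990248-64990366, minus strand): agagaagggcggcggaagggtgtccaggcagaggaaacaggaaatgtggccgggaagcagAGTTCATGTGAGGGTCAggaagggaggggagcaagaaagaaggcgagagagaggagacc

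**Figure D3:**
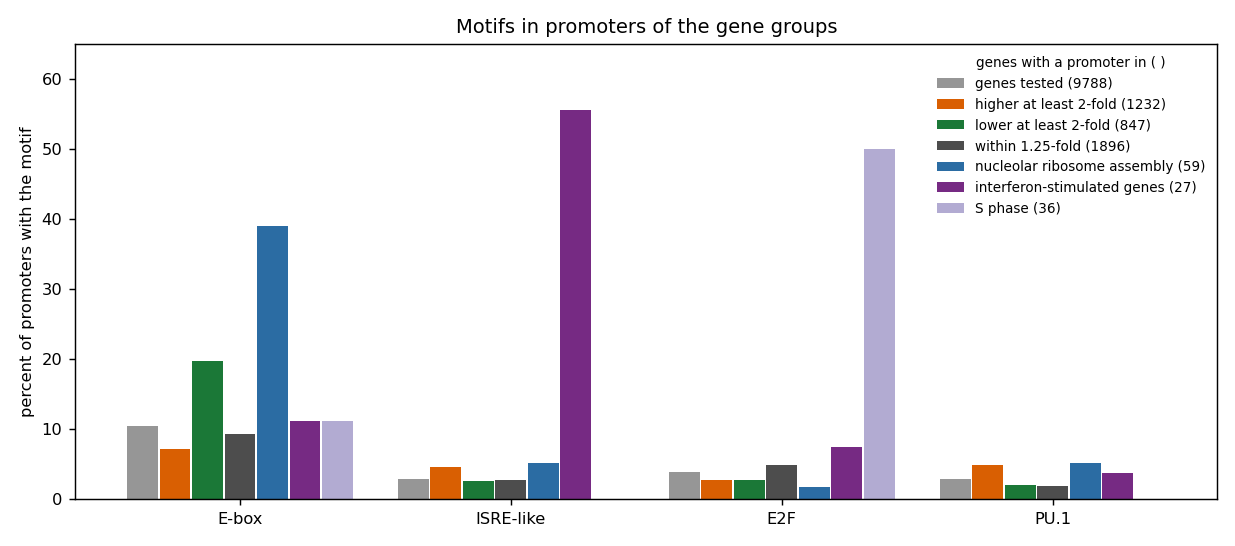
Percent of promoters that hold each of 4 motifs (vertical axis) for all tested genes with a promoter, for genes that rose or fell at least 2-fold or were steady, and for 3 gene lists, with the number of promoters in the legend. The E-box bar is highest for nucleolar ribosome assembly (39.0%), the ISRE-like bar for interferon-stimulated genes (55.6%) and the E2F bar for S phase genes (50%).

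Of 29 tested inhibitors of the cell cycle and regulators of G1, 16 were higher (7 at least 2-fold) and 10 lower (3 at least 2-fold), against 32.1% (12.9%) and 35.5% (8.88%) of all genes, so the lower calls were near the background. CDKN1A (p21) rose by 4.92 ± 0.49 but only from 0.12, 0.502 and 0.0563 CPM to 6.9, 7.4 and 6.3 CPM. BTG2, an antiproliferative factor, rose from 6.01, 6.90 and 8.73 CPM to 142.6, 124.4 and 119.7 CPM (4.15 ± 0.10), and CDKN1B (p27) by 0.43 ± 0.06. CDK4, the kinase that drives cells through G1, was at 106.1, 104.2 and 105.4 CPM without and at 44.9, 44.7 and 44.1 CPM with ATRA (−1.24 ± 0.05, adjusted p = 2.71e-27). Its relative CDK6 fell by 0.95 ± 0.06. Of the D cyclins that activate these kinases, CCND2 fell by 1.35 ± 0.04 and CCND3 rose by 1.54 ± 0.04.

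The BCL2 family sets the threshold for apoptosis at mitochondria. Of its 16 tested genes, 10 rose and 3 fell, against 32.1% and 35.5% of all genes. Protective members of the family moved in opposite directions. BCL2 fell from 123.3, 117.1 and 126.5 CPM to 21.8, 23.6 and 23.8 CPM (−2.41 ± 0.06, adjusted p = 1.3e-37), while BCL2A1 rose from 4.15, 3.70 and 3.83 CPM to 155.4, 149.8 and 147.2 CPM (5.27 ± 0.10, adjusted p = 5.05e-48). All ATRA libraries lay below the non-treated ones for the first gene and above them for the second. MCL1, another protective member, rose by 1.56 ± 0.04 and the sensitizer PMAIP1 (NOXA) by 2.15 ± 0.07. The effectors BAX and BAK1 rose by 0.18 ± 0.05 and 0.47 ± 0.05, and BAX was steady by the interval.

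MYC was at 1301, 1297 and 1278 CPM in the non-treated libraries and at 141.2, 154.8 and 155.6 CPM in the ATRA libraries. It fell by 3.10 ± 0.04 on the log2 scale (adjusted p = 9.41e-46), with the groups far apart. Its DNA-binding partner MAX fell by 0.77 ± 0.05, and MXD1, which competes with MYC for MAX, rose from between 27.9 and 30.2 CPM to between 80.1 and 86.0 CPM (1.52 ± 0.06). MLXIPL, a glucose-responsive factor of the same network, went from no count to between 2.59 and 4.08 CPM, at least 19.7-fold higher. Over the 12 tested genes of the network, 6 rose and 6 fell, against 32.1% and 35.5% of all genes.

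Genes of nucleolar ribosome assembly fell nearly as a whole, the factors that process ribosomal RNA and build the subunits. All 70 genes were tested, 67 fell (46 of them at least 2-fold, against 8.88% of all genes), none rose and the other 3 (DDX52, RCL1 and NOP10) were steady, with a median log2 fold change of −1.09. NCL, nucleolin (chromosome 2, 231453531 to 231464484), was at 2445, 2544 and 2352 CPM without and at 992.9, 1012 and 1069 CPM with ATRA (−1.26 ± 0.04, adjusted p = 2.27e-30). NPM1, nucleophosmin, was at 2522, 2563 and 2436 CPM without and at 1225, 1241 and 1241 CPM with ATRA (−1.02 ± 0.04, adjusted p = 9.97e-27). In both genes the ATRA libraries agreed among themselves and lay below every non-treated library. The largest falls of the list were those of RRP9 (2.01 on the log2 scale) and NOP16 (1.72).

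MYC and its relatives bind the E-box CACGTG, which reads the same on both strands. This string was in 23 of 59 promoters of the nucleolar list (39.0%), in 10.4% of those of all tested genes, in 19.7% of those of genes that fell at least 2-fold, in 7.06% of those of genes that rose at least 2-fold and in 9.28% of those of steady genes. Of the nucleolar-list promoters outside chromosomes 8 and 18 that hold it, those whose genes had the highest CPM are given with the string in capitals. In all 4 it lies just downstream of the start.
FBL (chr19:39846350-39846433, minus strand): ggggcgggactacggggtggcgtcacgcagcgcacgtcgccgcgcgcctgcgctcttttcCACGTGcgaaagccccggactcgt
WDR43 (chr2:28894610-28894696, plus strand): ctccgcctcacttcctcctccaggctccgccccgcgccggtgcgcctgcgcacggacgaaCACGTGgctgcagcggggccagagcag
NOP14 (chr4:2963377-2963451, minus strand): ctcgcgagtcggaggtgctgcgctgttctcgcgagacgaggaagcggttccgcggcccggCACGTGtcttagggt
PES1 (chr22:30591881-30591957, minus strand): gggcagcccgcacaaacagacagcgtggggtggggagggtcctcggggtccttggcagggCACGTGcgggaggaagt

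FBL, fibrillarin, the methyltransferase of ribosomal RNA, fell from 694.6, 653.5 and 641.2 CPM to 362.4, 348.8 and 343.5 CPM (−0.92 ± 0.04). WDR43, a subunit of the small subunit processome, fell by 1.23 ± 0.04, NOP14 by 1.19 ± 0.04 and PES1, which acts on the large subunit, by 1.48 ± 0.04. Within the nucleolar list, the 23 genes with the string had a median log2 fold change of −1.19 and the 36 without it one of −1.09. The shares called lower ran the other way, 91.3% with the string and 100% without it (65.2% and 69.4% at least 2-fold). Over all tested genes, 50% of the 1016 with the string were called lower, and 36.8% of the 8772 without it.

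The polymerases that transcribe ribosomal and transfer RNA genes fell as well, in 24 of 31 tested genes of RNA polymerases I and III (9 at least 2-fold, against 35.5% and 8.88% of all genes), with a median of −0.48. POLR1G, a subunit of polymerase I, fell from between 23.9 and 25.8 CPM to between 3.59 and 4.87 CPM (−2.51 ± 0.12), and POLR3G, a subunit of polymerase III typical of undifferentiated cells, by 2.78 ± 0.20. UBTF, the architectural factor of ribosomal DNA, fell by 0.32 ± 0.04.

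Purine synthesis fell without exception among the 14 tested genes, 6 of them at least 2-fold, with a median of −0.96 (35.5% of all genes fell, 8.88% at least 2-fold). PAICS, which carries out a pair of steps of the pathway, was at 694.9, 694.6 and 663.2 CPM without and at 245.2, 259.9 and 260.5 CPM with ATRA (−1.42 ± 0.04, adjusted p = 6.25e-35). PPAT, the enzyme of the committed step, fell by 1.54 ± 0.05, and the salvage enzyme HPRT1 showed the smallest fall, 0.48 ± 0.05.

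Serine and one-carbon metabolism, which supplies the carbon units for purines, fell in 15 of 16 tested genes (7 at least 2-fold), also against 35.5% and 8.88% of all genes. PSAT1, of the serine pathway, went from 224.3, 219.8 and 197.3 CPM to 34.7, 39.6 and 39.8 CPM (−2.49 ± 0.06, adjusted p = 1.23e-38). The first enzyme of that pathway, PHGDH, fell by 1.56 ± 0.04 and the mitochondrial folate enzyme MTHFD2 by 1.17 ± 0.04.

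Of 20 pyrimidine and deoxynucleotide genes, 6 were higher and 10 lower, against 32.1% and 35.5% of all genes. CAD and DHODH, which make pyrimidines anew, fell by 1.73 ± 0.04 and 1.81 ± 0.12. RRM2 and TK1, which supply deoxynucleotides in S phase, rose by 0.49 ± 0.04 and 0.33 ± 0.05, and TYMS was steady. Polyamine metabolism had 4 higher and 7 lower genes of 13 tested (32.1% and 35.5% of all genes), with a median of −0.30. Of these, ODC1, the first enzyme of synthesis, fell from between 735.2 and 817.0 CPM to between 215.3 and 233.8 CPM (−1.80 ± 0.04) and SRM fell by 1.88 ± 0.04. The enzymes of polyamine breakdown SMOX and SAT1 rose by 5.70 ± 0.14 and 2.14 ± 0.07.

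Further groups of protein synthesis were mostly lower, against 35.5% of all genes (8.88% at least 2-fold). Cytosolic tRNA synthetases fell in 18 of 20 genes (6 at least 2-fold, median −0.75). Translation factors fell in 37 of 44 (5 at least 2-fold, median −0.46) and mitochondrial ribosome genes in 67 of 75 (8 at least 2-fold, median −0.46). For these last groups the share past 2-fold was near that of all genes. Chaperonins and heat shock proteins fell in 26 of 30 (5 at least 2-fold, median −0.56). WARS1 was the single synthetase that rose (0.38 ± 0.04), and BAG3, a cochaperone, rose by 3.41 ± 0.37. P4HB, a protein disulfide isomerase of the endoplasmic reticulum, fell from 3643, 3593 and 3451 CPM to 1215, 1251 and 1283 CPM (−1.51 ± 0.05), and CALR, a chaperone there, fell by 1.87 ± 0.04. The elongation factor EEF2 fell by 0.39 ± 0.05.

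**Figure D4:**
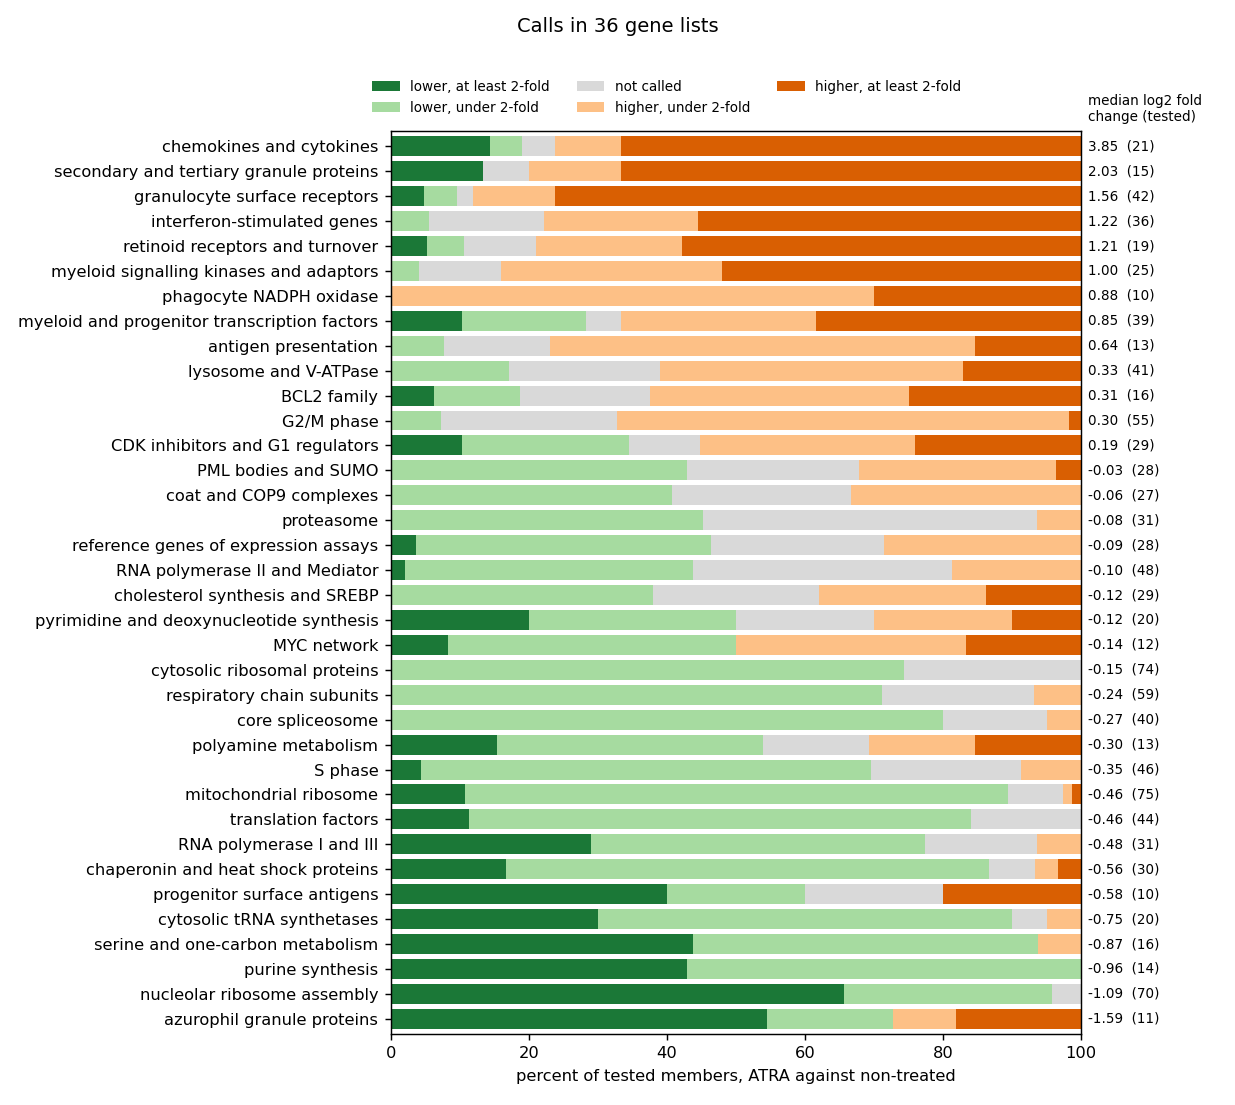
Calls in 36 gene lists, ATRA against non-treated: each bar divides the tested members of a list into lower and higher genes, at least or under 2-fold, and genes not called (horizontal axis in percent), with the median log2 fold change and the number tested at the right. Lists are ordered by median, from 3.85 for chemokines and cytokines to −1.59 for azurophil granule proteins, and the medians at both ends were nearer 0 (1.15 and −0.60) when at least 10 counts were required in every library.

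Genes of DNA replication fell by little and those of mitosis did not fall as a group. Of 46 tested S phase genes 32 fell (2 at least 2-fold), 4 rose and 14 were steady, with a median of −0.35. Over all genes 35.5% fell (8.88% at least 2-fold, a larger share than here), 32.1% rose and 17.1% were steady. UNG, which removes uracil from DNA, fell by 1.49 ± 0.06, the helicase subunits MCM4, MCM6 and MCM7 by 0.75 ± 0.04, 0.57 ± 0.04 and 0.54 ± 0.04, and the sliding clamp PCNA by 0.35 ± 0.04. CCNE2, the cyclin of S phase entry, rose by 0.70 ± 0.15. Of 55 tested G2/M genes 37 rose (1 at least 2-fold), 4 fell and 18 were steady, with a median of 0.30, and the share past 2-fold was under the 12.9% of all genes that rose so far. MKI67, the antigen Ki-67, was at 638.8, 643.4 and 707.5 CPM without and at 1035, 1043 and 1006 CPM with ATRA (0.63 ± 0.04, adjusted p = 2.47e-19). Each ATRA library lay above each non-treated library. TOP2A, topoisomerase II, rose by 0.52 ± 0.04, CDK1 by 0.31 ± 0.04 and CCNB1 by 0.26 ± 0.05, whereas CKS2 fell by 0.56 ± 0.05. The 1 gene past 2-fold was LBR, a nuclear envelope protein that is also needed for neutrophil nuclei to become lobed, which rose from between 548.7 and 569.3 CPM to between 1714 and 1767 CPM.

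Against palbociclib the same genes stood far higher. Between the ATRA and the palbociclib libraries 9433 of the genes tested were called (70.8%), 35.2% higher and 35.6% lower with ATRA. All 46 tested S phase genes and 54 of the 55 G2/M genes were higher with ATRA. MKI67 was higher by 5.62 and TOP2A by 4.26 on the log2 scale, and the S phase genes RRM2 and MCM7 by 5.19 and 1.71. In contrast, NCL and NPM1 were lower with ATRA than with palbociclib (log2 fold changes −0.81 and −0.96), and so was MYC (−2.97). The plot of members in both comparisons shows that the cell cycle lists lay near 0 against non-treated cells and far above 0 against palbociclib, while nucleolar and purine genes lay mostly below 0 in both. The medians against palbociclib were 2.07 for S phase, 3.15 for G2/M, −0.84 for nucleolar ribosome assembly and −0.82 for purine synthesis. These comparisons share the ATRA libraries.

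**Figure D5:**
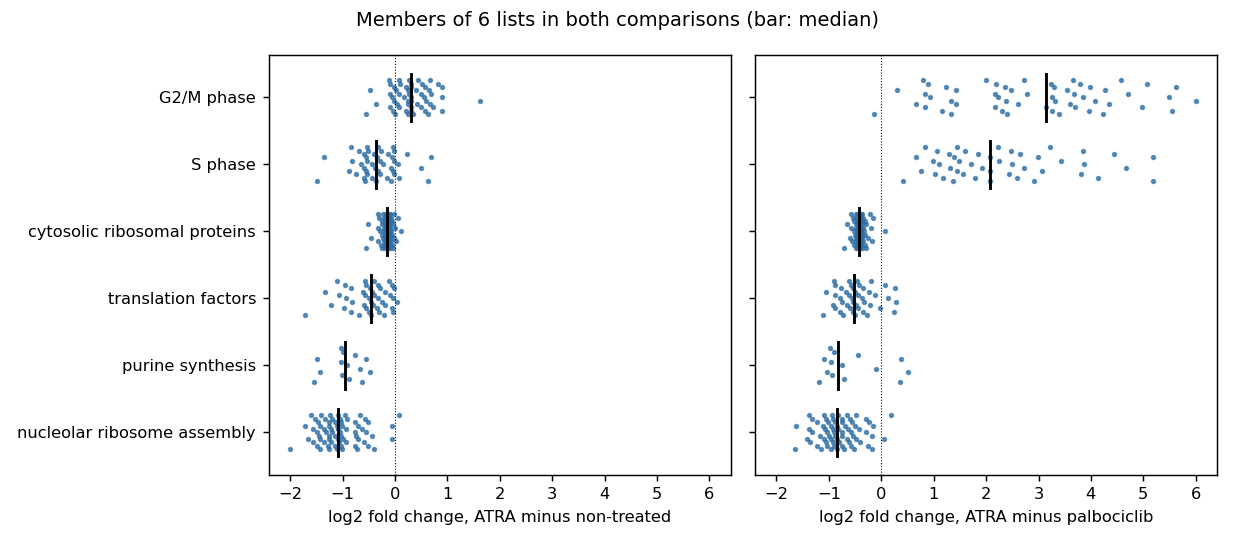
Log2 fold change of each tested member of 6 lists (points) with the median (bar), for ATRA against non-treated (left) and ATRA against palbociclib (right). G2/M and S phase genes lie close to 0 at the left (medians 0.30 and −0.35) and far above 0 at the right, and nucleolar genes lie below 0 in both panels for most members.

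The E2F motif (TTTGGCGC or TTTCCCGC on either strand), bound by the factors that CDK4 and CDK6 release, was in 18 of 36 promoters of the S phase list (50%) and in 3.87% of those of all tested genes. Of the S phase promoters outside chromosomes 8 and 18 with it, those of MCM7 and MCM6 belong to the genes with the highest CPM. The motif is in capitals.
MCM7 (chr7:100101517-100101644, minus strand): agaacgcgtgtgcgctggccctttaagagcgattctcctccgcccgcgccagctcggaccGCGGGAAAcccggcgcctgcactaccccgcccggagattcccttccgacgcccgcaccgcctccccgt
MCM6 (chr2:135876466-135876595, minus strand): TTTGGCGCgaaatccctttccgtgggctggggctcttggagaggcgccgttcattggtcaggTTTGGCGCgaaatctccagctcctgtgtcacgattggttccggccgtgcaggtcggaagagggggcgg

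MCM6 was at 501.3, 502.5 and 474.8 CPM without and at 325.1, 328.2 and 343.9 CPM with ATRA, and MCM7 at 659.2, 665.2 and 630.9 CPM and at 428.4, 438.1 and 477.9 CPM. Neither gene overlapped between the groups. The 18 S phase genes with the motif had a median log2 fold change of −0.39 and the 18 without it one of −0.45, and over all tested genes the medians were −0.12 for the 379 with it and −0.02 for the 9409 without it. E2F1 itself fell by 0.78 ± 0.07.

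Genes of several basic functions changed by little. The ribosomal proteins were steady in 59 of 74 tested genes, and although 55 passed the test as lower, none changed 2-fold and the median was −0.15. Of all genes tested, 17.1% were steady, 32.1% higher and 35.5% lower. In the highest quartile of genes by level, where depth allows steadiness to be shown more often, 34.0% were steady. The proteasome was steady in 24 of 31 genes, with 2 higher and 14 lower. RNA polymerase II and Mediator were steady in 20 of 48, with 9 higher and 21 lower, and vesicle coats and the COP9 complex in 14 of 27, with 9 higher and 11 lower. The core spliceosome was steady in 18 of 40, with 2 higher, 32 lower and a median of −0.27, and the respiratory chain in 26 of 59, with 4 higher, 42 lower and a median of −0.24. The steady gene with the highest counts was EEF1A1, a translation elongation factor, at 16858, 16609 and 15830 CPM without and 16000, 15405 and 16097 CPM with ATRA (−0.05 ± 0.05). GAPDH was at 3711, 3650 and 3578 CPM without and at 3584, 3427 and 3588 CPM with ATRA (−0.05 ± 0.05), and the groups overlapped for both genes. POLR2A, the largest subunit of RNA polymerase II, was steady at 219.5 to 240.7 CPM without and 237.2 to 240.5 CPM with ATRA.

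Among genes commonly used as references in expression assays, 12 of 28 were steady (17.1% of all genes and 34.0% of the highest quartile by level). Others of them were not. ACTB rose by 0.41 ± 0.05, from between 6434 and 6870 CPM to between 8552 and 9155 CPM, and GUSB rose by 0.91 ± 0.04. LDHA fell by 0.95 ± 0.04. Of the genes of PML nuclear bodies and SUMO conjugation, 11 of 28 were steady, 9 rose and 12 fell, against 17.1%, 32.1% and 35.5% of all genes. PML was steady at 88.2 to 96.6 CPM without and 87.9 to 96.4 CPM with ATRA, and SP100, another body component, rose by 1.13 ± 0.06.

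Markers of other cells were checked beside these results. Of 14 marker genes of monocytes and macrophages, 9 were at or under 3 counts in all 6 libraries and MRC1, C1QB, C1QC, MSR1 and MARCO were at 0, while their sum went from between 2.65 and 3.61 CPM to between 51.9 and 56.6 CPM, much of it the receptor kinase MERTK (32.8 to 34.8 CPM after ATRA). The 4 monocyte and macrophage markers tested all rose at least 2-fold, with a median log2 fold change of 4.95. Of 12 erythroid markers 8 were at 0 in all 6 libraries (HBA1 and HBB among them), and the sum was between 10.1 and 12.1 CPM without and between 11.6 and 13.6 CPM with ATRA. The sum of 9 megakaryocyte markers went from between 2.01 and 3.21 CPM to between 3.59 and 4.61 CPM, with PF4, PPBP and GP6 at 0. The sum of 11 T and NK cell markers went from between 119 and 127 CPM to between 189 and 191 CPM with CD3G, CD8A and TRAC at 0 and nearly all of it CD4, which myeloid cells also express, that of 8 B cell markers from between 14.8 and 18.5 CPM to between 23.7 and 25.6 CPM with MS4A1 at 0, and that of 10 fibroblast and epithelial markers stayed under 1 CPM. The 11 myeloid markers summed to between 7310 and 7650 CPM and then to between 1550 and 1620 CPM, with MPO the larger part of the first sum. Of the 8 myeloid markers tested 5 fell and 3 rose. Their part in the results above was not tested.

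The mitochondrial share of counts also moved with ATRA, from between 1.9% and 2.79% to between 2.79% and 3.92%. RNR2, the large ribosomal RNA of mitochondria, was at 2983, 2945 and 3944 CPM without and at 5522, 6476 and 4736 CPM with ATRA (0.76 ± 0.09). COX1 rose by 0.57 ± 0.10, but ATRA replicate 3 (5431 CPM) lay below non-treated replicate 3 (5477 CPM). The part of RNA quality in this was not tested.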

How the data were processed

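RNA-Seq of total RNA from HL60 was done with a directional library kit on 12 libraries, 3 per group. According to the labels and the methods, reads were trimmed with Trimmomatic 0.33 and aligned to hg38 with STAR 2.7.11a, and the authors deposited whole-number raw counts per gene without normalization. The methods name a different counting tool from the one whose column layout the table has, and the strand setting is not given in the sources used here, so reads of overlapping genes may not be separated. Of the tested genes, 4666 share exon bases with another gene and 689 are listed on several contigs, where reads that map more than once may be lost. Among the 8225 tested genes free of both, 67.8% were called.

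Counts of all 12 libraries were fitted in edgeR 4.0.16 (R 4.3.3) with a model of the 4 groups, TMM scaling and the filter for low counts of that package, followed by the quasi-likelihood test with Benjamini-Hochberg adjustment over all genes tested. Errors are standard errors of that fit with n = 3 per group. A gene with at most 3 counts in each library of a group is given by its bound against 3 counts per library, which covers counting error only. The procedure was tested on simulated counts. Named genes are the largest rises and falls with at least 5 CPM, the largest gains and losses in CPM, the steady genes of highest level, and members of the gene lists. Members and lists were chosen with earlier results of these data known. Matches of different motifs were counted separately, overlaps included. Promoter sequences are from RefSeq. Results for some genes are not reported here.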

Additional observations from a re-analysis of the deposited data

How the results depend on the processing

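Under another scaling, filter, tool or set of libraries in the fit, between 7910 and 9063 genes were called against 9006, and no called gene was called in the opposite direction. With at least 10 counts required in every library, 11061 genes were tested and 964 instead of 1712 rose at least 2-fold, since that filter removes genes near 0 without ATRA. With a limit of 1.5-fold in place of the ratio of 5 to 4, 5128 genes were steady. The share of higher genes among those called, 47.4%, was at most 50.6% with another scaling and 50.7% with only the 2 groups in the fit. Leaving out 1 library at a time gave 8546 to 8719 called genes, 1647 to 1728 higher and 1144 to 1181 lower by at least 2-fold, and 2051 to 2129 steady.

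The median of the genes of PML bodies and SUMO, −0.03, changed sign to 0.0041 with DESeq2's size factors, 0.0127 with library size alone, 0.0068 with at least 10 counts, 0.0132 with only the 2 groups in the fit, 0.0037 with DESeq2 1.42.0 and 0.0061 without ATRA replicate 2, and ranged from −0.0593 to 0.0061 with 1 library left out. The cause was not tested. With at least 10 counts in every library, which drops members near 0, the medians were 1.15 for chemokines and cytokines, 1.19 for secondary and tertiary granule proteins, −0.60 for azurophil granule proteins and −1.31 for progenitor surface antigens (−0.58 otherwise). With the log2 ratio of mean CPM plus 1, the first 2 were 1.26 and 1.21. Of the named genes, SYK, EIF2AK2, LAMP2 and RPLP0, all steady, crossed the threshold of the test under some alternatives with the direction kept, and the others did not.

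Replicate numbers of the labels did not pair the libraries (correlations of deviations 0.00779, −0.0337 and −0.0998). With the number as a block, 8915 genes were called, 1700 higher and 1173 lower by at least 2-fold and 2235 steady, and 9347 were called against palbociclib. With only promoters of genes with a single listed start, an alternative chosen after seeing the data, the E-box share of genes that fell at least 2-fold was 21%. Depth limits what can be said of genes of few reads, of which none could be shown to be steady in the lowest quartile by level.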

Other observations

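Several large changes lay outside the gene groups described above. LRRC32, which tethers latent TGF-β to the cell surface, had no count in the non-treated libraries and was at 15.2, 15.2 and 15.9 CPM with ATRA, at least 86.3-fold higher. EPAS1, the hypoxia-inducible factor HIF-2α, went from no count to 35.5, 30.3 and 30.6 CPM (at least 179-fold higher), and SELP, P-selectin, from at most 0.113 CPM to between 55.2 and 60.7 CPM (at least 319-fold higher). LAMB3, a laminin chain, rose from between 0.481 and 0.941 CPM to 513.4, 443.2 and 411.0 CPM (log2 fold change 9.47 ± 0.31). Of the surface receptors counted above, the adhesion molecules ICAM1 and CEACAM1 rose by 8.10 ± 0.27 and 9.76 ± 0.63. CEACAM1 had 6 reads in non-treated replicate 1 and none in the other non-treated replicates, so the size of its fold is uncertain. In all, 254 genes with at most 3 counts in each non-treated library were called higher, and 42 genes with at most 3 counts in each ATRA library were called lower. Among the falls, MZB1, a chaperone of the endoplasmic reticulum, fell by 4.59 ± 0.25. The serpin SERPINB10 fell from between 90.6 and 93.9 CPM to between 4.08 and 4.31 CPM (−4.47 ± 0.11), and carbonic anhydrase 2 (CA2) fell by 4.03 ± 0.28.

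Lysosomal genes rose in 25 of 41 tested cases and fell in 7 (32.1% and 35.5% of all genes), and the median was 0.33 on the log2 scale. Of the 41 genes, 7 rose at least 2-fold, near the 12.9% of all genes. The protease CTSD was at 312.6, 312.7 and 314.1 CPM without and at 2626, 2528 and 2645 CPM with ATRA (3.05 ± 0.04), one of the largest gains in CPM, while the membrane protein LAMP1 fell by 0.37 ± 0.04 and LAMP2 was steady. TFEB, a transcription factor of lysosomal genes, rose from between 1.38 and 2.14 CPM to between 13.8 and 14.5 CPM (2.93 ± 0.18). The proton pump subunit ATP6V0A1 rose by 1.02 ± 0.05, and ATP6V0B, of the same pump, was steady.

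Of the genes of cholesterol synthesis and its control, 11 of 29 rose, 11 fell and 5 were steady, near the shares over all genes (32.1%, 35.5% and 17.1%). The exporter ABCA1 rose from 7.51, 7.78 and 10.3 CPM to 103.7, 87.3 and 79.7 CPM (3.39 ± 0.11). CYP51A1, an enzyme of a late step of synthesis, fell by 0.63 ± 0.06. Genes of antigen presentation rose in 10 of 13 tested cases (32.1% of all genes) and fell in 1 (35.5%). The peptidase ERAP2 rose by 1.3 ± 0.05 and B2M, the light chain of class I molecules, by 0.39 ± 0.04. The class I heavy chains HLA-B and HLA-C rose by 0.84 and 0.82, values that are uncertain because these genes share reads with each other and are listed on several contigs.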
